A study of Arabidopsis thaliana with 15 samples.

Results

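The genes STZ, ORA47, AT2G22880 and AT4G27654 had high signals in freshly cut Arabidopsis leaf disks and low signals after culture, whereas JRG21 had a low signal at the start and a high one from 12 h on. These 5 genes were chosen on their differences from 0 h in these same arrays, and their probe sets were found by gene symbol or locus in the platform annotation. They are 5 of 13286 loci that the annotation pairs with at least 1 probe set of a single gene, and each of the 5 had 1 probe set. The differences from 0 h are therefore given as a description without a test, and tests are given only between later times, whose arrays were also one side of the differences used in the choice. The label under which the genes were brought together, wound and jasmonate genes high at cutting, did not hold for JRG21, which had its lowest signals at 0 h. Neither AT2G22880 nor AT4G27654 has a function name in the annotation used here.

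The study followed induced xylem differentiation in leaf disks of the ecotype Col-0. Rosette leaves of 25-day-old seedlings gave disks of 1 mm, which were kept in medium holding 2,4-D, a synthetic auxin, at 1.25 mg/L, the cytokinin kinetin at 0.25 mg/L and bikinin at 10 µM. Bikinin inhibits GSK3 kinases and so turns on brassinosteroid responses. The groups were disks at 0, 12, 24, 36 and 48 h of induction, each with 3 of the 15 arrays, and they shared ecotype, age and tissue. Total RNA was hybridised to 1-colour Affymetrix arrays, and the values are MAS5 signals on a linear scale. The samples held no intact leaf and no disks cultured without the compounds, so effects of cutting, medium, compounds and time cannot be told apart, and whether a 0 h signal was above that of an uncut leaf was not measured. The labels do not say that replicates were separate cultures, so p-values measure the spread between these arrays, which may be technical. In RNA from whole disks, fewer cells of a type and less RNA per cell cannot be told apart.

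Jasmonates are lipid hormones that plants make within minutes of wounding. The active conjugate leads to the destruction of JAZ repressor proteins, which frees MYC transcription factors to switch on defence genes, genes of jasmonate synthesis and genes that end the signal. STZ, also called ZAT10, is a C2H2 zinc finger protein of abiotic stress with repressor activity. ORA47 is an AP2/ERF transcription factor that activates genes of jasmonate synthesis. JRG21, jasmonate-regulated gene 21, belongs to the oxygenases that hydroxylate jasmonic acid and so lower its active pool.

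The arrays of 0 h stood apart from the rest: across the probe sets kept they correlated with the later arrays at 0.562 to 0.707, just under the lowest value between arrays of different later times, which correlated at 0.715 to 0.960, and well under the 0.886 to 0.954 between arrays of one time. A probe set was kept when its highest group mean reached a signal of 30.7, which left 17829 of 22746. All 5 genes passed that filter through the times at which they are high, which says nothing about their change. A signal below 30.7 is read here as dim, and folds that rest on such signals are uncertain in size. Over all probe sets kept, the median log2 change was -0.03 at 12 h and 0.22 at 48 h against 0 h. Since many probe sets changed, these medians need not be the value of a gene with no change of its own.

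STZ had signals of 14810.6, 16432.7 and 11790.2 at 0 h, then 387.9, 1577.5 and 2406.9 at 12 h and 79.3, 300.3 and 606.9 at 24 h. It reached 33.9, 158.8 and 260.3 at 36 h and 26.9, 71.1 and 44.3 at 48 h. The 0 h arrays lay far above every later array, and the arrays of 48 h lay below all those of 12 h, while neighbouring later times overlapped. Against 0 h, the mean log2 signal differed by -3.64 at 12 h, a 12.5-fold lower signal, and by -8.34 at 48 h. Between later times, STZ fell by 4.70 ± 0.88 (SE, n = 3 arrays a time) on the log2 scale at 48 h against 12 h, with a limma adjusted p = 0.0024. Its log2 change ran between -5.47 without 12 h replicate 1 and -4.16 without 12 h replicate 3, and the adjusted p over all alternatives between 2.8e-04 and 0.0134.

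ORA47 had signals of 13654.3, 3593.9 and 3652 at 0 h, where replicate 1 stood well above the other 2 arrays. The signals were 80.5, 43.8 and 204.8 at 12 h, 35.5, 58.8 and 165 at 24 h, 20.9, 31.5 and 50.7 at 36 h, and 37.3, 30.1 and 16.7 at 48 h. All later arrays lay below all 0 h arrays, and the arrays of 48 h lay below those of 12 h without overlap. The difference from 0 h was -5.97 on the log2 scale at 12 h, a 62.9-fold lower signal, and -5.34 without 0 h replicate 1. At 48 h it was -7.73. On the linear scale nearly all of the 0 h signal of ORA47 was thus gone at the first sampling. For 48 h against 12 h the log2 difference of -1.76 ± 0.71 did not pass the test (95% interval -3.30 to -0.21, adjusted p = 0.088), and without 12 h replicate 3 it was -1.16 (adjusted p = 0.286).

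AT2G22880 had signals of 2894, 4213.7 and 5495.6 at 0 h, 280.0, 276.4 and 615 at 12 h, and 4.8, 52.3 and 81.4 at 24 h. At 36 h it had 1.4, 29.2 and 23.1, and at 48 h 1.5, 1.9 and 3.5, all dim. The arrays of 0 h, 12 h and 24 h did not overlap each other, whereas those of 36 h overlapped both 24 h and 48 h. The log2 difference from 0 h was -3.49 at 12 h and -10.91 at 48 h. It was -7.81 at 48 h when 16 was added to every signal before taking logs, so the size of the late difference rests on dim signals. At 48 h against 12 h AT2G22880 fell by 7.43 ± 1.13 on the log2 scale (adjusted p = 6.8e-04), and fell by 4.38 with the addition of 16 (adjusted p = 6.5e-05). At 24 h against 12 h the log2 difference of -3.73 ± 1.13 did not pass the test (adjusted p = 0.133) and was -2.47 without 24 h replicate 1. With the replicate number as a block, that step had an adjusted p = 0.051 when the unnumbered 36 h array was left out and 0.034 when it was taken as replicate 3.

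AT4G27654 had signals of 7256.2, 8554 and 7457.4 at 0 h, the tightest of all the groups of the 5 genes (SD 0.13 on the log2 scale, n = 3). At 12 h the signals were 26.4, 45 and 169.4, at 24 h 12.7, 35.4 and 89, at 36 h 4.1, 30.2 and 35.4, and at 48 h 24.4, 41.7 and 22.7. The later times overlapped each other throughout, and every later array lay far below every 0 h array. The mean signal was 132-fold lower at 12 h than at 0 h, a log2 difference of -7.05, and the difference was -8.09 at 48 h. Among later times no step of AT4G27654 passed the test: 48 h against 12 h gave -1.04 ± 0.89 (95% interval -2.96 to 0.88, adjusted p = 0.416), and -0.27 without 12 h replicate 3.

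JRG21 had signals of 17.2, 102.4 and 101.4 at 0 h, against which all 12 later arrays were higher. At 12 h it had 5327.6, 2693.3 and 5209.1, at 24 h 1422.5, 1558.7 and 4641.8, at 36 h 830.0, 1132.9 and 2571.9, and at 48 h 573.9, 1023.7 and 1843.9. The arrays of 12 h were the highest as a group and did not overlap those of 48 h. The log2 difference from 0 h was 6.23 at 12 h, a 74.8-fold higher signal, and 4.19 at 48 h, an 18.2-fold higher one. Without 0 h replicate 1, which was dim, these values were 5.37 and 3.33. For 48 h against 12 h the log2 difference was -2.04 ± 0.73 (95% interval -3.63 to -0.44), which did not pass the test (adjusted p = 0.0586). With the replicate number as a block it passed (adjusted p = 0.020 without the unnumbered array, 0.013 with it as replicate 3), and without 48 h replicate 1 it was -1.62 (adjusted p = 0.198).

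**Figure D1:**
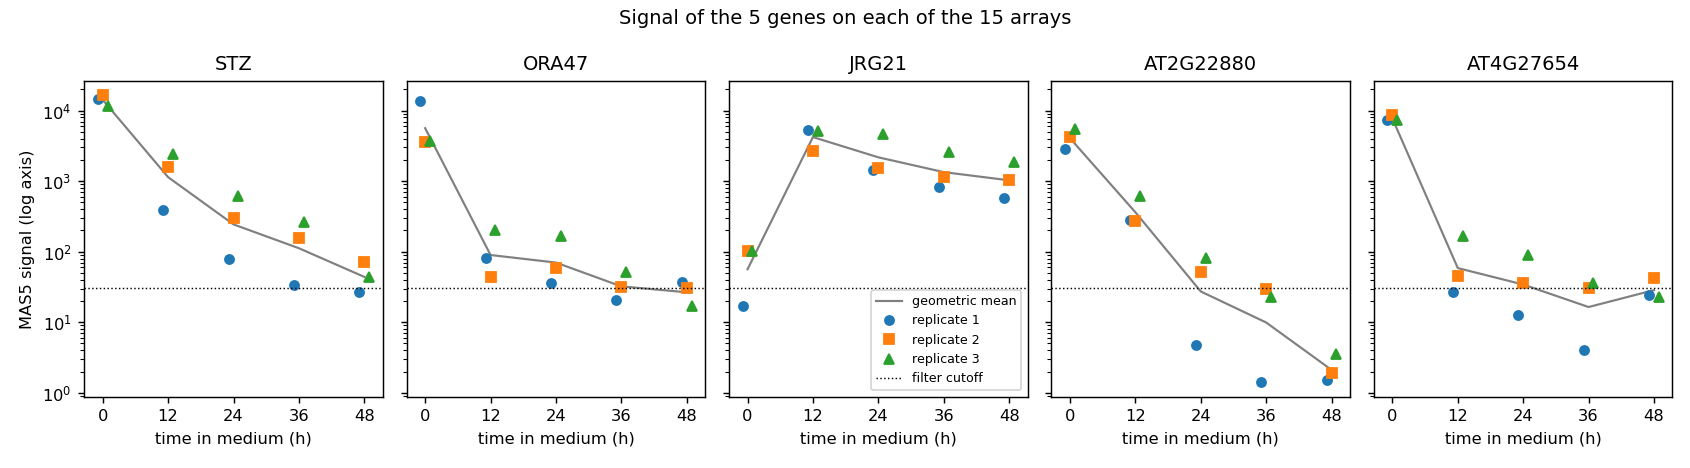
MAS5 signal (log axis) of each gene against hours in the medium, with 1 symbol per array for replicates 1, 2 and 3, a line through the geometric means and a dotted line at the filter's cutoff of 30.7. The 0 h arrays are the highest for STZ, ORA47, AT2G22880 and AT4G27654 and the lowest for JRG21, and after 12 h the line of JRG21 slopes down as well.

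The 4 genes that were high at 0 h had unlike fold differences at 12 h, which were not tested against each other. ORA47 and AT4G27654 had signals 62.9-fold and 132-fold lower at 12 h than at 0 h, and their differences between 48 h and 12 h did not pass the test. Their lowest 12 h arrays were 43.8 and 26.4, near or below 30.7, so a further fall would rest largely on dim signals. The signals of STZ and AT2G22880 were 12.5-fold and 11.2-fold lower at 12 h, and both genes fell further by 48 h. JRG21 differed from all 4 in the sign of its difference from 0 h, but after 12 h its mean signal was lower at each next time, being 4212, 2175, 1342 and 1027 from 12 h to 48 h, and at the end it was still far above 0 h. Whether the genes differed from each other in their change up to 12 h or after it was not tested.

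Over all probe sets kept, 23.7% were called higher and 21.9% lower at 12 h against 0 h, and 33.3% higher and 23.7% lower at 48 h against 0 h, where called means an adjusted p under 0.05. The 4 genes with lower signals and the 1 with a higher signal stand within this wide change of the transcriptome, and since these differences chose the genes, nothing is read from their count. Of the 5 genes, limma called 0 at 24 h against 12 h, where 1.23% of all probe sets were called, 0 at 36 h against 24 h (0.112%) and 0 at 48 h against 36 h (0%). At an unadjusted p under 0.05 these counts were 2, 0 and 0 of the 5 genes, beside 2949, 2100 and 642 of all 17829 probe sets in the same steps. At 48 h against 12 h, 2 of the 5 genes were called, STZ and AT2G22880, both lower. Over all probe sets 26.4% were called in that comparison, 16.5% higher and 9.87% lower. The median log2 change of all probe sets was 0.05 between these times. The unadjusted limma p there was also under 0.05 for ORA47 (0.029) and JRG21 (0.016), as for 6886 of all 17829 probe sets. With replicate number as a block, JRG21 was also called (adjusted p = 0.020 without the unnumbered array, 0.013 with it as replicate 3). Those fits called 5524 and 5912 of all probe sets. With the array as replicate 3, AT2G22880 was also called at 24 h against 12 h (adjusted p = 0.034), beside 711 of all probe sets.

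**Figure D2:**
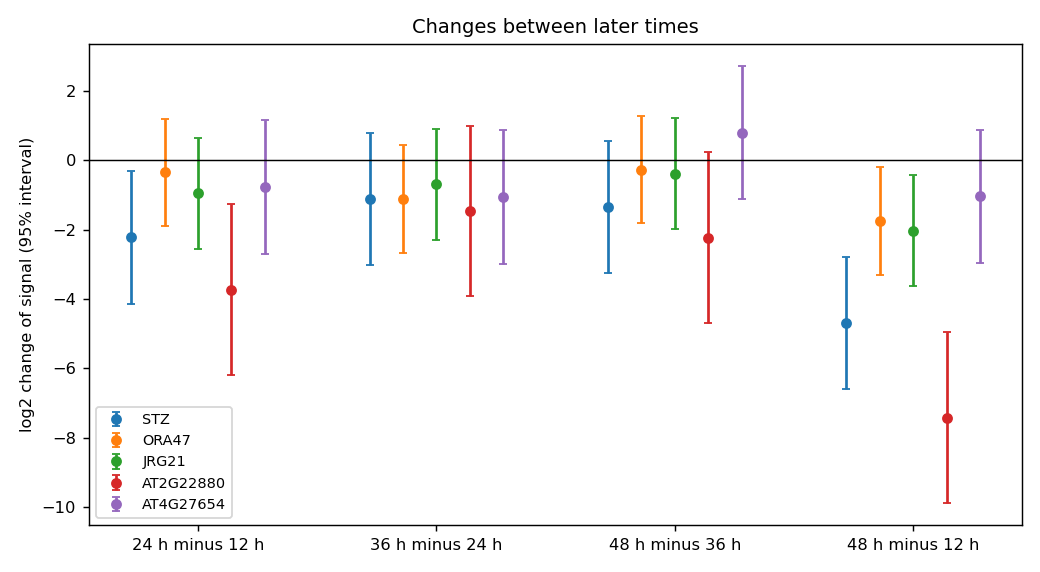
Log2 change of signal between later times with its 95% interval from the limma fit, for each of the 5 genes (n = 3 arrays a time, colours as in the legend). Every change from 12 h to 48 h lies below 0, and the intervals of STZ and AT2G22880 lie farthest below it, whereas AT4G27654 spans 0 in all 4 comparisons.

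The arrays of one replicate number shared part of their departure from the group mean in these genes. Replicate 1 had the lowest signal of STZ at 4 of 4 later times, and of JRG21, AT2G22880 and AT4G27654 at 3 of 4. For ORA47 this held at 2 of 4, and at 48 h its replicate 1 was the highest and its replicate 3 the lowest. Replicate 3 had the highest signal at 3 of the 4 later times for each of the 5 genes. For all but AT2G22880 that count includes the 36 h array that is called 3 only by order. Across the 12 later arrays, the log2 signals of the genes correlated pairwise at r = 0.628 to 0.956, with STZ and AT2G22880 at the top, and JRG21 correlated with the other 4 at 0.628 to 0.856. These are descriptions over arrays that share time and replicate number. Over all 15 arrays JRG21 correlated negatively with the others (-0.77 to -0.42), but the 0 h arrays form a cluster of their own, so the pooled value restates the choice of genes.

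Relatives of the transcription factors were next compared with them. A listed gene is called measured when the annotation pairs a probe set with that gene alone and the probe set passed the filter. An unmeasured gene may still have a probe set that the annotation does not list. Of 4 listed DREB relatives of ORA47, 2 were measured, and both fell at 12 h and at 48 h. Of all probe sets, 21.9% fell at 12 h and 23.7% at 48 h. AT1G19210 had 60.6, 36.4 and 44.7 at 12 h and 25.9, 29 and 18.9 at 48 h, against 2158.8, 1877.3 and 1082.6 at 0 h. It fell by 5.15 ± 0.46 on the log2 scale at 12 h (adjusted p = 4.2e-06) and fell by 6.08 ± 0.46 at 48 h, the same direction as ORA47 itself. AT1G22810 fell by 4.79 ± 1.32 at 12 h (adjusted p = 0.0101) and fell by 5.63 ± 1.32 at 48 h (adjusted p = 0.0030), with dim signals at most later arrays, and fell by 3.22 at 12 h without 12 h replicate 1.

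Of 10 listed C2H2 zinc finger relatives of STZ, 2 were measured, and they went opposite ways. AT2G28200 had 691, 282.8 and 280.2 at 48 h, against 295, 64.2 and 100.7 at 0 h, so that 1 of the 0 h arrays lay within the range of 48 h. It rose by 1.61 ± 0.50 on the log2 scale at 48 h (adjusted p = 0.0143), a call that was lost without 0 h replicate 2 (1.14) or 48 h replicate 1 (1.18), or with only these 2 times fitted (adjusted p = 0.0769). AT3G53600 had 1.7, 2.6 and 2.3 at 48 h, all dim, against 3.1, 89.6 and 158.7 at 0 h. Its log2 change of -4.03 ± 1.47 at 48 h passed the test (adjusted p = 0.0326), but was not called without any 1 of 5 arrays: 0 h replicate 2 (-3.36) or 3 (-2.94), or 48 h replicate 1 (-3.84), 2 (-4.16) or 3 (-4.08). Neither gene was called at 12 h against 0 h.

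Among 9 listed VQ motif genes set beside AT2G22880, 3 were measured. AT4G15120 had 257.7, 590.2 and 888 at 12 h and 149.6, 195.8 and 225.8 at 48 h, against 58.7, 35.8 and 77.1 at 0 h. All its arrays of 12 h and 48 h lay above those of 0 h, the reverse of AT2G22880. It rose by 3.24 ± 0.55 on the log2 scale at 12 h (adjusted p = 4.3e-04) and by 1.78 ± 0.55 at 48 h (adjusted p = 0.0152), this second call being lost without 0 h replicate 2 (1.48). AT1G78410 and IKU1, a gene of seed size control, were not called at either time. AT1G78410 had 540.6, 1253.2 and 2395.3 at 12 h, against 293.4, 227.9 and 427.9 at 0 h, and IKU1 had 135 to 186.1 at 48 h, against 95.2 to 201.2 at 0 h.

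AT4G27654 lies between AT4G27652 and AT4G27657 in the order of genes in the TAIR10.1 table, and both neighbours were also lower at 12 h and at 48 h than at 0 h. Among all probe sets, 21.9% fell at 12 h and 23.7% at 48 h. AT4G27652 had 544.2, 501 and 1190.5 at 12 h and 108.3, 258 and 150.8 at 48 h, against 11249.9, 15253.5 and 8239.7 at 0 h. It fell by 4.03 ± 0.56 on the log2 scale at 12 h (adjusted p = 9.3e-05) and fell by 6.12 ± 0.56 at 48 h (adjusted p = 3.3e-06). AT4G27657 had 166.7, 243.7 and 478.8 at 12 h and 15.8, 45.4 and 26.8 at 48 h, against 7609.6, 9331.8 and 6352.8 at 0 h. It fell by 4.83 ± 0.61 at 12 h (adjusted p = 4.1e-05) and fell by 8.16 ± 0.61 at 48 h (adjusted p = 7.9e-07). Unlike AT4G27654, both also passed the test between later times, AT4G27652 with -2.09 ± 0.56 (adjusted p = 0.0169) and AT4G27657 with -3.33 ± 0.61 (adjusted p = 0.0020) at 48 h against 12 h, although whether these changes differ from that of AT4G27654 was not tested. The call of AT4G27652 was lost without 12 h replicate 3 (-1.69) or 48 h replicate 1 (-1.80).

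The next gene on one side, PEL1, a gene of translation quality control, differed little. It had 577, 476.4 and 593.3 at 12 h and 489.9, 506.2 and 657.8 at 48 h, against 749.4, 918.6 and 729.4 at 0 h. Its log2 change of -0.54 ± 0.21 passed the test at both times (adjusted p = 0.0473 at 12 h and 0.0390 at 48 h). The 12 h call was lost on leaving out any 1 of the 6 arrays compared (-0.60 to -0.44), and the 48 h call without 0 h replicate 1 (-0.58) or 2 (-0.44) or 48 h replicate 1 (-0.46) or 2 (-0.49). Both calls were also lost without the filter (adjusted p = 0.0723 at 12 h and 0.0597 at 48 h) and with only the times compared (0.164 and 0.122), and the 12 h call after median centring (0.0712).

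**Figure D3:**
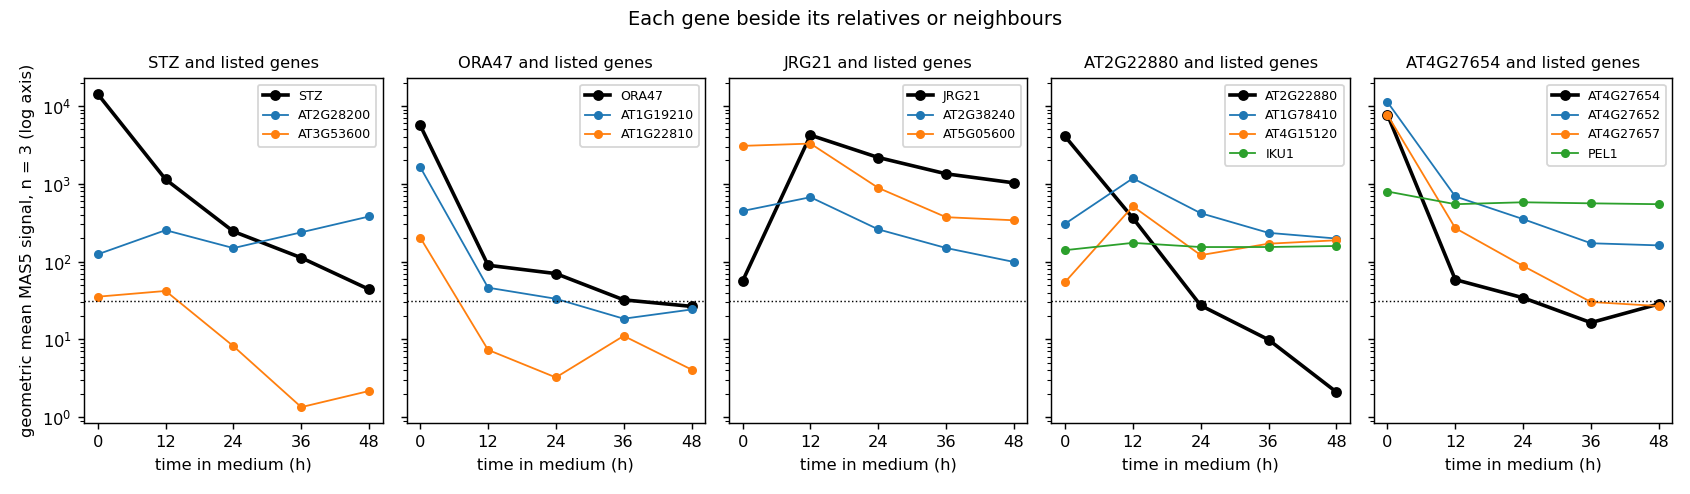
Geometric mean MAS5 signal (log axis, n = 3 arrays a time) against hours in the medium for each of the 5 genes in black and its listed relatives or neighbours in colour, with a dotted line at 30.7. Signals of different probe sets are not comparable in level, so only the shapes should be compared. AT1G19210 and AT1G22810 share the drop from 0 h to 12 h with ORA47. AT4G27652 and AT4G27657 share it with AT4G27654, but their means were lower at each next time, whereas that of AT4G27654 was higher at 48 h than at 36 h. PEL1 stays near its 0 h signal and AT4G15120 has its peak at 12 h.

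Of 9 other genes listed with jasmonate breakdown, the group to which JRG21 belongs, 2 were measured, and neither was called at 12 h against 0 h. AT5G05600 had 2688.8, 2442.4 and 5393.3 at 12 h, against 1073, 5803.9 and 4635.9 at 0 h, and these groups overlapped. At 48 h it had 408.6, 302.5 and 316, below all arrays of 0 h and 12 h. AT5G05600 fell by 3.18 ± 0.54 on the log2 scale at 48 h against 0 h (adjusted p = 3.1e-04) and fell by 3.27 ± 0.54 against 12 h (adjusted p = 0.0011). AT2G38240 ranged from 182.2 to 1371.2 at 12 h and from 55 to 170.2 at 48 h, against 88.7 to 1293.3 at 0 h, and passed no test.

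Jasmonate synthesis was represented by 3 of 22 listed genes. OPCL1, the CoA ligase that activates a jasmonate precursor for oxidation in the peroxisome, had 1483.2, 1961.4 and 2352.2 at 12 h and 402.7, 701 and 934.5 at 48 h, against 6990.1, 14845.9 and 10067.3 at 0 h. The 3 times did not overlap. It fell by 2.42 ± 0.48 on the log2 scale at 12 h (adjusted p = 0.0013) and fell by 3.98 ± 0.48 at 48 h (adjusted p = 2.5e-05). JMT, the methyltransferase that makes methyl jasmonate, had 363.9, 260.9 and 134.4 at 12 h and 19.8, 57.3 and 63.5 at 48 h, against 147.2, 222.5 and 157.2 at 0 h. Against 0 h it was not called at 12 h and was called at 48 h (-2.05 ± 0.76, adjusted p = 0.034), a call lost without 0 h replicate 1 (-2.17), 2 (-1.87) or 3 (-2.12) or 48 h replicate 1 (-1.52). AIM1, a beta-oxidation enzyme named here after its values were seen, was the third gene and was not called.

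Signalling and output were thinly covered by the annotation. Of 23 listed signalling genes only the transcription factor genes MYC3 and MYC4 were measured, and neither was called at 12 h or 48 h against 0 h. MYC4 had 125.7, 107.9 and 82.2 at 12 h and 54.1, 115.2 and 138.5 at 48 h, against 194.2, 219 and 81.1 at 0 h. Of 21 output genes 2 were measured. The defensin gene PDF1.2 had 18.5, 57 and 84 at 48 h, against 3909.3, 935.4 and 80 at 0 h, an overlap that came from 0 h replicate 3. Its log2 change was -3.90 ± 1.04 (adjusted p = 0.0066), and -2.62 without 0 h replicate 1 or -5.42 without 0 h replicate 3. The call was lost when only the arrays of 48 h and 0 h were fitted (adjusted p = 0.0539). THI2.1, the other gene, named after its values were seen, was dim on most arrays and was not called.

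The early wound and touch genes gave the largest group, 8 of 59 listed. At 12 h against 0 h, 4 of them fell and 1 rose, with a median log2 change of -1.65, and at 48 h 6 fell and 1 rose, with a median of -2.88. Of all probe sets, 21.9% fell and 23.7% rose at 12 h, and 23.7% fell and 33.3% rose at 48 h. CML38, a calmodulin-like calcium sensor, had 94.3, 380.1 and 1635.3 at 12 h and 58.8, 92 and 82.8 at 48 h, against 4941.6, 9185.2 and 10986.5 at 0 h. It fell by 4.35 ± 0.85 on the log2 scale at 12 h (adjusted p = 0.0012) and fell by 6.70 ± 0.85 at 48 h (adjusted p = 3.7e-05). WRKY22, a transcription factor gene of immune signalling, had 63.8, 94.8 and 135.3 at 12 h and 101.2, 46.5 and 47.9 at 48 h, against 981.9, 1816.3 and 1389.1 at 0 h. All its later arrays named here lay below those of 0 h. WRKY22 fell by 3.85 ± 0.39 at 12 h (adjusted p = 9.5e-06) and fell by 4.47 ± 0.39 at 48 h.

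CML37, a close relative of CML38, had 55.3, 787.6 and 1527.9 at 12 h and 15.8, 8.8 and 15.5 at 48 h, against 451.6, 1724.1 and 1107.2 at 0 h. The 12 h arrays overlapped those of 0 h, and the 48 h arrays lay far below both. It fell by 6.20 ± 1.21 on the log2 scale at 48 h against 0 h (adjusted p = 8.5e-04) and fell by 4.97 ± 1.21 against 12 h (adjusted p = 0.0102), and fell by 6.41 against 12 h without 12 h replicate 1. WRKY6, a regulator of senescence and defence genes that was named after its values were seen, was the 1 member that rose. It had 1264, 2127.6 and 3159.7 at 12 h, against 267.6, 289.6 and 430.8 at 0 h, a log2 change of 2.66 ± 0.43 (adjusted p = 2.6e-04). At 48 h WRKY6 was 1.35 ± 0.43 above 0 h (adjusted p = 0.0167), which was not called without 0 h replicate 1 (1.21, adjusted p = 0.0531).

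Of 14 listed genes of wound-induced regeneration, 3 were measured. AT5G61890 had 298.5, 167.8 and 173.1 at 12 h, against 51, 36.4 and 32.5 at 0 h, and rose by 2.39 ± 0.32 on the log2 scale (adjusted p = 6.7e-05). It had 45, 62.3 and 70.6 at 48 h, and at 48 h against 12 h it fell by 1.82 ± 0.32 (adjusted p = 0.0016), so that its highest signals were at 12 h, as those of JRG21 were. AT1G36060 had 370.8, 260.9 and 118.1 at 48 h, against 2.4, 56.4 and 77 at 0 h. It rose by 3.37 ± 1.08 at 48 h (adjusted p = 0.0177), by 1.77 without the dim 0 h replicate 1, and was not called without 48 h replicate 1 (3.01) or with only these 2 times fitted (adjusted p = 0.0717).

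Over the 6 lists of jasmonate and wound genes together, 20 of 148 genes were measured, the 5 genes themselves not counted. Only 23 of the 148 had a probe set in the annotation, so most of the gap lies there and not in the filter. At 12 h against 0 h, 2 rose and 5 fell with a median log2 change of -0.41, where the median of all probe sets was -0.03 and 23.7% of them rose and 21.9% fell, so the share of the list that fell was near that of all probe sets. At 48 h against 0 h, 2 rose and 10 fell with a median of -2.12, against a median of 0.22 for all probe sets, of which 33.3% rose and 23.7% fell. At 48 h against 12 h, 0 rose and 6 fell with a median of -0.98, against a median of 0.05 for all probe sets, of which 16.5% rose and 9.87% fell. The number that rose at 48 h was 1 without 0 h replicate 1 or without 48 h replicate 1, and the number that fell between 12 h and 48 h was 3 without 48 h replicate 1.

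**Figure D4:**
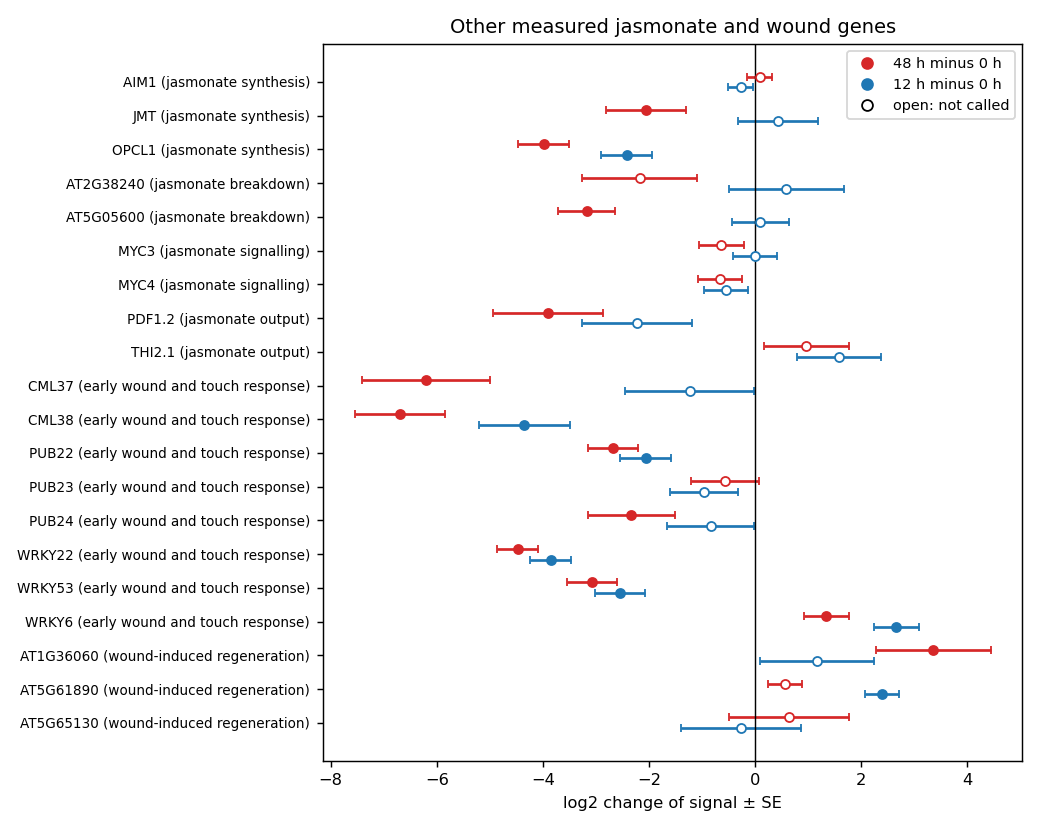
Log2 change of signal ± SE from the limma fit (n = 3 arrays a time) of the 20 measured jasmonate and wound genes, at 48 h and 12 h against 0 h, with open points for changes that were not called. Most filled points lie left of 0, while WRKY6, AT5G61890 and AT1G36060 have filled points to the right.

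Markers of leaf cell types changed over the same times. The 5 measured of 17 mesophyll markers all fell at 12 h and at 48 h against 0 h. Their summed signal was 3036 to 5974 at 12 h and 2098 to 3669 at 48 h, against 113406 to 144760 at 0 h, and none was listed at 0. Of all probe sets, 21.9% fell at 12 h and 23.7% at 48 h. LHCB4.2, a light-harvesting protein gene, fell by 6.53 ± 0.68 on the log2 scale at 12 h and fell by 6.83 ± 0.68 at 48 h. PSAN, a photosystem I subunit gene, fell by 5.83 ± 0.76 at 12 h, and PRK, a Calvin cycle kinase gene, fell by 6.21 ± 0.65 at 48 h. Whether these falls have any part in the lower signals of STZ, ORA47, AT2G22880 and AT4G27654, or in the signal of JRG21, was not tested.

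Of the other markers, 0 of 6 epidermal genes were measured. The guard cell gene FMA, 1 of 6, was not called at 12 h and fell by 1.94 ± 0.46 at 48 h. Of 6 phloem genes 2 were measured: the sugar transporter gene SWEET11 fell by 2.90 ± 0.28 at 12 h and fell by 6.74 ± 0.28 at 48 h, and OPS rose by 2.50 ± 0.44 and 3.82 ± 0.44. The 5 measured of 12 xylem markers had a summed signal of 1324 to 2350 at 12 h and 9768 to 12988 at 48 h, against 861 to 942 at 0 h, and all 5 rose at 48 h. Of all probe sets, 33.3% rose at 48 h. The gene scpl48, with geometric means of 545 at 0 h and 7829 at 48 h, made up the largest part of the 48 h sum. At 12 h the means of GUT2 and IRX15-L were below those of 0 h, and those of the other measured xylem markers above. IRX15, a gene of xylan synthesis in secondary walls, rose by 6.95 ± 0.82 at 48 h, from dim signals of 4.7, 4.2 and 11.4 at 0 h. With 16 added to every signal, IRX15 rose by 5.08. The peroxidase gene PRX52 was the 1 xylem marker called at 12 h. It had 379.3, 762.2 and 1036.6 at 12 h and 109.3, 141.8 and 342.7 at 48 h, against 17.8, 1.6 and 44.5 at 0 h. PRX52 rose by 5.96 ± 1.15 at 12 h (adjusted p = 0.0010) and by 4.02 ± 1.15 at 48 h (adjusted p = 0.0097), or by 2.54 at 48 h with 16 added to every signal and 2.63 without 0 h replicate 2. Its 48 h arrays lay below those of 12 h without overlap, but that difference did not pass the test (adjusted p = 0.234).

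The probe sets whose log2 signals were most like each gene over the 15 arrays were also found, and since 0 h stands apart, the correlation over the 12 later arrays is given beside it. For STZ they were AT2G27500 (r = 0.983, later arrays 0.962), AT3G04640 (0.976 and 0.941), AT2G22880 (0.976 and 0.956), AT4G27657 (0.973 and 0.951) and the plastid gene psbC of photosystem II (0.973 and 0.952). AT2G22880 had STZ first, followed by psbC (0.975 and 0.950), AT1G72940 (0.968 and 0.952), AT2G27500 (0.968 and 0.935) and the photosystem I gene psaB (0.966 and 0.926). STZ and AT2G22880 thus each had the other and psbC among their 5 closest.

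For ORA47 the closest were AT1G74450 (r = 0.978, later arrays 0.859), AT2G46735 (0.970 and 0.870), AT2G29290 (0.969 and 0.736), AT1G12250 (0.969 and 0.741) and its relative AT1G19210 (0.969 and 0.713). AT4G27654 had AT1G74450 first as well (0.976 and 0.807), then AT5G11650 (0.976 and 0.856), AT2G46220 (0.972 and 0.744), AT1G52870 (0.971 and 0.738) and its neighbour AT4G27652 (0.971 and 0.826). The likeness of ORA47 and AT4G27654 to these genes was lower over the later arrays than over all 15, where the step after 0 h enters. The genes were picked by their correlation over all 15 arrays, which favours a higher value there. Every gene listed for STZ, AT2G22880 and JRG21 also had a lower value over the later arrays.

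JRG21 was most like AT1G12830 (r = 0.967, later arrays 0.863), the cytochrome c gene CYTC-2 (0.963 and 0.796), AT3G60980 (0.959 and 0.869), AT3G06310 (0.958 and 0.849) and AT5G40040 (0.958 and 0.807). All 5 had their lowest group mean at 0 h and their highest at 12 h, as JRG21 itself did. They were picked by their correlation with JRG21 over arrays that include 0 h. That choice favours such a shared profile, so nothing is read from it. AT5G40040 had geometric mean signals of 4.35, 344, 232, 156 and 101 from 0 h to 48 h. Those of CYTC-2 were 1962, 9452, 8145, 5806 and 6061 at the same times.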

How the data were processed

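Total RNA of 15 leaf disk samples was measured on 1-colour Affymetrix arrays. The intensities used are the authors' deposited signals on a linear scale. Per the submitters' processing notes, GCOS and MAS5 were used; the sources used here give no version of either. The trimmed mean of each array was 500 with 2% left out at each end, so this scaling hides any shift common to most transcripts. Median signals were 121.8 to 169.9, and any 2 arrays had exactly equal values in at most 2 of 22746 probe sets. Detection calls were not used.

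Log2 values were taken with no offset or further normalization. Control probe sets (64) were left out, and a probe set was kept when its highest geometric group mean reached percentile 30 of all group means. Limma 3.58.1 in R 4.3.3 fitted 5 group means over all 15 arrays (10 residual degrees of freedom), and each contrast had a two-sided moderated test, adjusted by Benjamini and Hochberg's method over the 17829 probe sets kept. The fit was tested on simulated data. Group levels are geometric means, and a gene with several probe sets was represented by the one with the highest mean.

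Of all probe sets that were not controls, 13513 had 1 gene in the platform annotation, 503 had several and 8730 were not listed there; 13436 were found in the TAIR10.1 gene table, used for names and gene order only. The 5 genes, the gene lists and the tests were chosen with earlier results of these data known. Named genes are the 5 genes, from each list the 2 called genes with the largest change at 12 h and at 48 h against 0 h (or the 1 largest where none was called), all measured relatives, breakdown genes and neighbours, and the 5 probe sets most like each gene.

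Replicate numbers come from the titles. The third 36 h array carries none and is called 3 by order. Deviations from group means of later, numbered arrays with the same number correlated at 0.126 to 0.496 in 15 of 15 pairs, and of those with different numbers at -0.471 to 0.016, so the numbers pair the later arrays. Same-number pairs with a 0 h array correlated at 0.014 to 0.135. Alternatives were an offset of 16, median centring, quantile normalization, no filter, a filter at percentile 50, a fit of only the times compared, a variance trend, the replicate block, and leaving out each array. A planned look for promoter motifs was not run, because no promoter sequences were used here.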

Additional observations from a re-analysis of the deposited data

How the results depend on the processing

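The falls of STZ and AT2G22880 at 48 h against 12 h kept their direction and their call in all 15 alternatives. JRG21 at 48 h against 12 h was called with an offset of 16 (-2.02), after median centring (-2.26) and, at an unchanged -2.04, with the filter at percentile 50, with only the 2 times compared, with a variance trend and with the replicate block in both forms, but in 0 of the 6 fits without 1 array. AT2G22880 at 24 h against 12 h was called with the offset (-2.88) and with the block when the unnumbered array was taken as 3 (-3.73). The offset also gave -7.81 for AT2G22880 and -7.43 for AT4G27654 at 48 h against 0 h, and 1 jasmonate or wound gene that rose at 48 h against 12 h, where the main result was 0. With only the times compared, 1 such gene rose at 48 h against 0 h.

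Counts of probe sets called at 24 h against 12 h (220) were 78 without the filter, 0 with only those times, 430 with the replicate block without the unnumbered array and 711 with it. At 36 h against 24 h (20) they were 85 with the offset, 43 with the stricter filter, 0 with only those times, and 81 and 68 with the block in its 2 forms. The block changed no other call of the 5 genes. Leaving out 1 array gave 0 to 333 at 24 h against 12 h, 0 to 62 at 36 h against 24 h, and 2981 to 4059 at 48 h against 12 h. It gave 1 to 2 listed genes that rose at 48 h against 0 h and 3 to 6 that fell at 48 h against 12 h. Uncalled steps that changed sign without 1 array were ORA47 at 24 h against 12 h (-0.97 to 0.24) and at 48 h against 36 h (-0.589 to 0.056), JRG21 at 48 h against 36 h (-0.808 to 0.083) and AT4G27654 at 48 h against 36 h (-0.20 to 1.35). Of the called changes of listed genes, 67 values lost the call under an alternative and 0 reversed, and of those of cell type markers 23 lost it and 0 reversed. The causes were not tested.

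The 3 arrays per time limit the precision. Later signals of AT2G22880, AT4G27654 and ORA47 often lay below 30.7, where ratios are unsure.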
